A study of Mus musculus with 6 samples.

Results

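Klrg1-positive natural killer (NK) cells were selected among the cells of mouse liver by their own transcripts. A cell barcode counted as one when it carried no T cell receptor contig, at least 1 unique molecular identifier (UMI) of Ncr1, at least 1 of Eomes, Klra8 and Klra4 together and at least 1 of Klrg1, and no UMI of Cd3d, Cd3e, Cd79a or Lyz2. Ncr1 codes for the NK receptor NKp46, Eomes for a transcription factor of the NK lineage, and Klra8 and Klra4 for the Ly49H and Ly49D receptors. Of 23860 barcodes in 3 libraries, 742 met the rule. These were 182 of 6479 barcodes of wild-type mice on a 60% high-fat diet (WT HFD), 392 of 10228 of wild-type mice on that diet with 0.25% hyodeoxycholic acid, a bile acid (WT HFD+HDCA), and 168 of 7153 of Ja18-/- mice on the diet with hyodeoxycholic acid (iNKT KO HFD+HDCA). Feeding lasted 12 weeks in all 3 groups. Ja18-/- mice lack a joining segment required for the antigen receptor of iNKT (invariant natural killer T) cells, a loss that is present in every cell of the animal and not only in the iNKT cells. The design names a sort of CD45+ liver mononuclear cells, whereas the treatment text names CD4+ lymphocytes. Each group had 1 RNA library and 1 T cell receptor library, and how many mice they came from is not stated in the sources used here. Values for the 3 libraries are given below in the order WT HFD, WT HFD+HDCA, iNKT KO HFD+HDCA.

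NK cells are lymphocytes that kill infected or transformed cells with perforin and granzymes and are controlled by a balance of activating and inhibitory receptors. KLRG1 is an inhibitory receptor that binds classical cadherins, E-cadherin among them, and its appearance on mouse NK cells marks late maturation, when CD27 has been lost and CD11b gained. The liver holds such circulating NK cells beside resident group 1 innate lymphoid cells (ILC1), which also carry NKp46 but lack Eomes.

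The sums behind the values were 1168518, 2570689 and 947459 UMIs over the Klrg1-positive cells, with medians of 5503.5, 5601.5 and 4954.5 UMIs per cell. Whole libraries held 44332213, 70776925 and 46600746 UMIs. Scrublet called 1, 2 and 0 of the members doublets, and the median mitochondrial share was 0.844%, 0.872% and 0.859%. The libraries shared 73, 67 and 93 barcodes pair by pair, none of them a member. Traj18, the deleted segment, had 1, 0 and 0 UMIs in the members, too few to check the genotype in these cells. Levels are given as counts per 1000000 UMIs (CPM) summed over the cells named. They are not corrected for length and so are compared between cells, not between genes.

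The members carried the genes that chose them at similar levels in the 3 libraries. Klrg1 was at 443, 506 and 554 CPM, Ncr1 at 1402, 1549 and 1669 CPM and Eomes at 299, 328 and 337 CPM. Klra8 was at 629.9, 638 and 789 CPM and Klra4 at 596, 732 and 749 CPM. These genes were used by the rule, so their levels are a description. Of the other marker genes of the label, S1pr5, a sphingosine 1-phosphate receptor that lets cells leave tissue, had a UMI in 83.0%, 82.7% and 80.4% of members, and Prf1, which codes for perforin, in 96.7%, 98.2% and 97.0%. The B cells taken as a background for free RNA (Cd79a and Ms4a1 present, no Ncr1, Cd3d, Cd3e or Lyz2, median 4509, 4427 and 4270 UMIs) had Prf1 in 0.677, 0.659 and 0.646% and S1pr5 in 0.104, 0.132 and 0.0861%. The markers of the label were therefore present in all 3 libraries. NK cells without Klrg1, described below, carried both too, S1pr5 at 285, 269 and 265 CPM and Prf1 at 797, 824 and 845 CPM. The comparison with B cells thus does not by itself show maturity.

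Markers of other cell types were summed over the members. The 10 B cell markers outside the rule reached 80.4, 86.0 and 64.4 CPM, against 10129 to 10427 CPM in B cells, and Ms4a1 is part of that sum. Hepatocyte markers summed to 0, 0.389 and 0 CPM, and plasma cell markers to 2.57, 7.39 and 5.28 CPM. Monocyte and macrophage markers outside the rule summed to 357, 353 and 339 CPM, close to the 368, 361 and 384 CPM of B cells. The 12 T cell markers outside the rule summed to 666, 670 and 606 CPM. Cd247, the signalling chain that NK cells share with T cells, is in that list. The part these transcripts have in the results was not tested.

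Klrg1-positive cells made up more of the NK cells in WT HFD+HDCA than in WT HFD beyond counting error. Without the Klrg1 condition the rule found 470, 749 and 355 NK cells, which were 7.25%, 7.32% and 4.96% of the barcodes. Klrg1-positive cells were 38.7% (exact 95% interval 34.3 to 43.3), 52.3% (48.7 to 56.0) and 47.3% (42.0 to 52.7) of them. Of all barcodes they were 2.81% (2.42 to 3.24), 3.83% (3.47 to 4.22) and 2.35% (2.01 to 2.73). The knockout library had the lowest share of all barcodes, with an interval that overlapped that of WT HFD, and a share of NK cells between those of the other libraries, overlapping both intervals. Its lowest place among barcodes depends on the condition on Eomes, Klra8 and Klra4. Without that condition 208 of 6479, 465 of 10228 and 340 of 7153 barcodes met the rule, and the knockout was not the lowest. These Clopper-Pearson intervals cover counting error only: 1 library per group leaves no measure of the spread between mice, so no test was made between conditions here or below. Whether a cell passes depends on its depth. After thinning every barcode to 3000 UMIs the shares of NK cells were 29.2%, 42.1% and 42.1%, and with at least 2 UMIs of Klrg1 required they were 24.0%, 35.9% and 31.0%, so the order of WT HFD and WT HFD+HDCA held while the place of the knockout moved. Of all barcodes the thinned shares were 1.96%, 3.00% and 2.05%, with WT HFD the lowest.

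**Figure D1:**
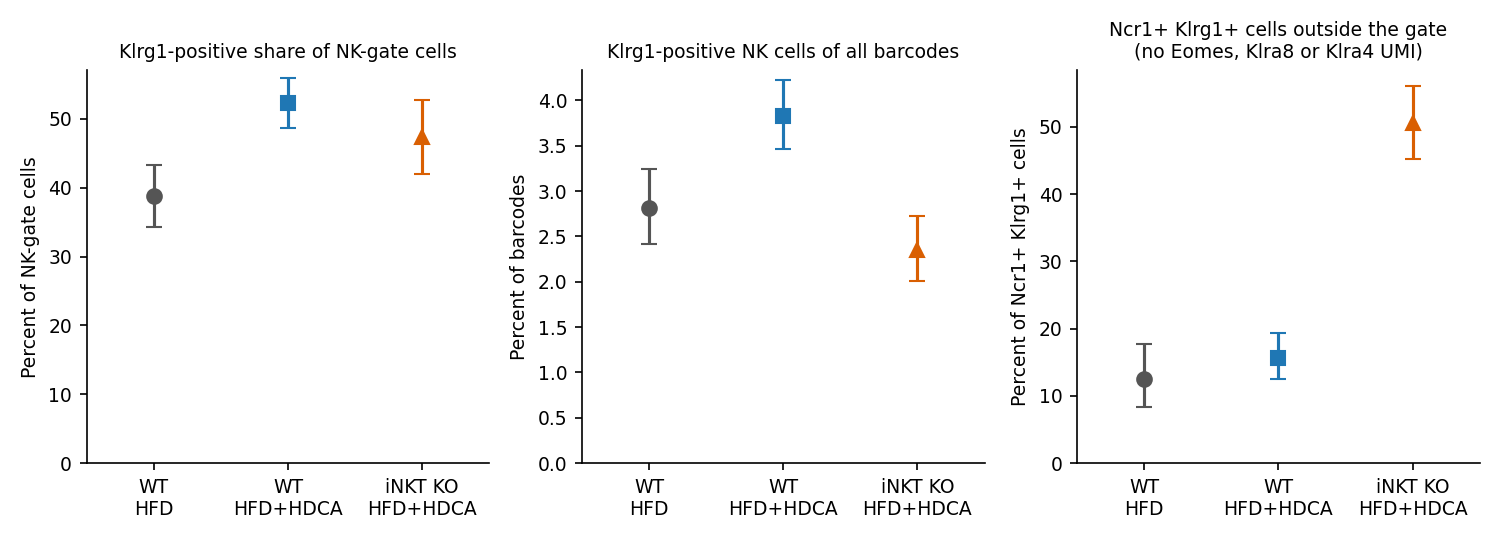
Klrg1-positive cells as a percent of NK cells and of all barcodes in each of the 3 libraries, with exact 95% intervals for counting error. WT HFD+HDCA is highest in both, at 52.3% of NK cells and 3.83% of barcodes.

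Within each library the Klrg1-positive cells were compared with the Klrg1-negative NK cells, which numbered 288, 357 and 187 and had medians of 4978.5, 5080 and 5065 UMIs. This comparison asks which genes go with Klrg1 in the same way in all 3 libraries, each of another condition. UMIs were summed into 6 values per gene and tested with edgeR's quasi-likelihood test with the library as a block, leaving out the genes of the rule. Of 8988 genes tested, 458 (5.10%) passed an adjusted p of 0.05, 245 (2.73%) higher and 213 (2.37%) lower in Klrg1-positive cells. DESeq2 called 48 and 30, and without WT HFD+HDCA, the deepest library, edgeR called 97 and 102. Without the block it called 149 and 118.

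All 9 mature NK markers outside the rule rose with Klrg1, with a median log2 fold change of 0.78 against -0.00131 over all genes tested, and all 9 were also called after thinning. Cx3cr1, the receptor for the chemokine CX3CL1, was at 81.3, 100.4 and 86.5 CPM against 7.38, 14.8 and 13.3 CPM in Klrg1-negative cells (log2 fold change 2.93, SE 0.17, adjusted p = 1.28e-15, edgeR). The 3 positive values lay far above the 3 negative ones. Itgam, which codes for CD11b, was at 300.4, 290.2 and 311 CPM against 161, 147 and 159 CPM (log2 fold change 0.97, SE 0.08, adjusted p = 7.17e-12, edgeR). Cma1, a mast cell chymase gene that mature NK cells also transcribe, was at 388, 409 and 386 CPM against 224, 179.5 and 206 CPM (log2 fold change 0.99, SE 0.08, adjusted p = 4.62e-12, edgeR). For both genes the lowest positive value exceeded the highest negative value. How many of all genes tested do the same was not counted.

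S1pr5 was at 389, 419 and 421 CPM against 285, 269 and 265 CPM (log2 fold change 0.60, SE 0.07, adjusted p = 1.16e-07, edgeR). Zeb2, a transcription factor of terminal NK maturation, was at 638, 679.6 and 617 CPM against 479, 459.7 and 394 CPM, with a log2 fold change of 0.55. Tbx21, which codes for T-bet, was at 581, 512 and 520.3 CPM against 393, 392 and 383 CPM, with a log2 fold change of 0.47. Again the groups did not overlap for any of the 3, which is a description without a share over all genes beside it. Ly6c2, a surface antigen gained on mature NK cells, was at 1220.3, 1007 and 1692 CPM against 844, 643 and 658 CPM, with a log2 fold change of 0.84. The knockout library held its highest Klrg1-positive value by a wide margin, whereas its Klrg1-negative value lay beside that of WT HFD+HDCA.

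**Figure D2:**
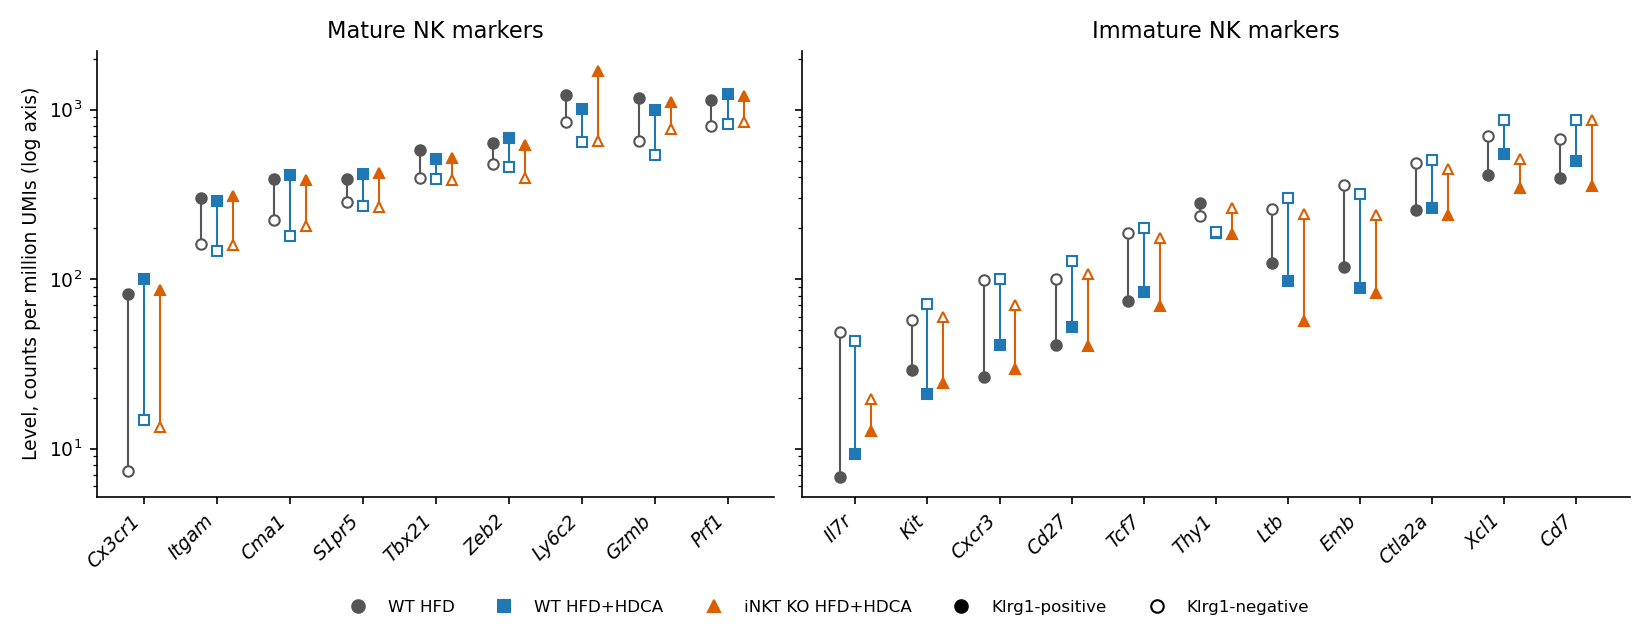
Levels (CPM, log axis) of mature and immature NK marker genes in Klrg1-positive and Klrg1-negative NK cells, 1 point per library and population. The mature markers lie higher in the positive cells of all 3 libraries, Cx3cr1 with the widest gap, and the immature markers other than Thy1 lie lower.

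Genes of immature NK cells fell with Klrg1: 10 of 11 were called lower, with a median log2 fold change of -1.30, and 9 were after thinning. Emb, which codes for embigin, an adhesion protein of the immunoglobulin family, was at 117, 88.3 and 82.3 CPM against 359.9, 318 and 239 CPM (log2 fold change -1.69, SE 0.09, adjusted p = 1.82e-17, edgeR). Il7r, the receptor chain for interleukin 7, was at 6.85, 9.34 and 12.7 CPM against 48.6, 43.4 and 19.6 CPM, a log2 fold change of -2.04. The gap was narrowest in the knockout library, a difference that was not tested, and there the Klrg1-negative cells held less of it than those of the other libraries. Cd27, a co-stimulatory receptor lost during maturation, was at 41.1, 52.5 and 40.1 CPM against 100.3, 127 and 108 CPM, a log2 fold change of -1.30. Tcf7, the transcription factor of early NK cells and of memory-like T cells, had a log2 fold change of -1.29, Ltb, which codes for lymphotoxin beta, -1.51, Kit -1.41 and the chemokine receptor gene Cxcr3 -1.42. Cd7 (-0.92), Ctla2a (-0.91) and Xcl1 (-0.66), which codes for a chemokine that draws dendritic cells, were lower by less. Thy1 was the member not called (-0.03, adjusted p = 0.930, edgeR).

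Levels moved in steps with the number of Klrg1 UMIs per cell, which describes what lies on each side of the rule's threshold. The NK cells with 0, 1, 2, 3 and at least 4 Klrg1 UMIs numbered 288, 69, 39, 26 and 48 in WT HFD, 357, 123, 66, 62 and 141 in WT HFD+HDCA, and 187, 58, 34, 26 and 50 in iNKT KO HFD+HDCA. Emb in these steps was at 359.9, 210.0, 79.3, 45.5 and 63.2 CPM in WT HFD, at 318, 137, 118, 88.0 and 37.3 CPM in WT HFD+HDCA and at 239, 105, 121, 90.5 and 42.4 CPM in the knockout. The cells just inside the rule, with 1 UMI, thus held an Emb level between those at 0 and at 4 or more in each library. Cx3cr1 in the same steps was at 7.38, 51.9, 88.1, 77.9 and 113 CPM, 14.8, 41.0, 73.4, 131 and 147 CPM and 13.3, 59.8, 71.3, 27.8 and 138 CPM in the 3 libraries. Gzma was at 6714, 9274, 13925, 12754 and 13414 CPM, 7545, 10849, 11976, 12829 and 14275 CPM and 7615, 11942, 12089.8, 12634 and 13776 CPM. In both genes the cells with 1 UMI already lay above those with 0, and the step from 1 to at least 4 was upward in all 3 libraries, although not every step between was. The cells with at least 4 were also the deepest, at medians of 6449, 5938 and 5597.5 UMIs, and these steps carry no test.

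**Figure D3:**
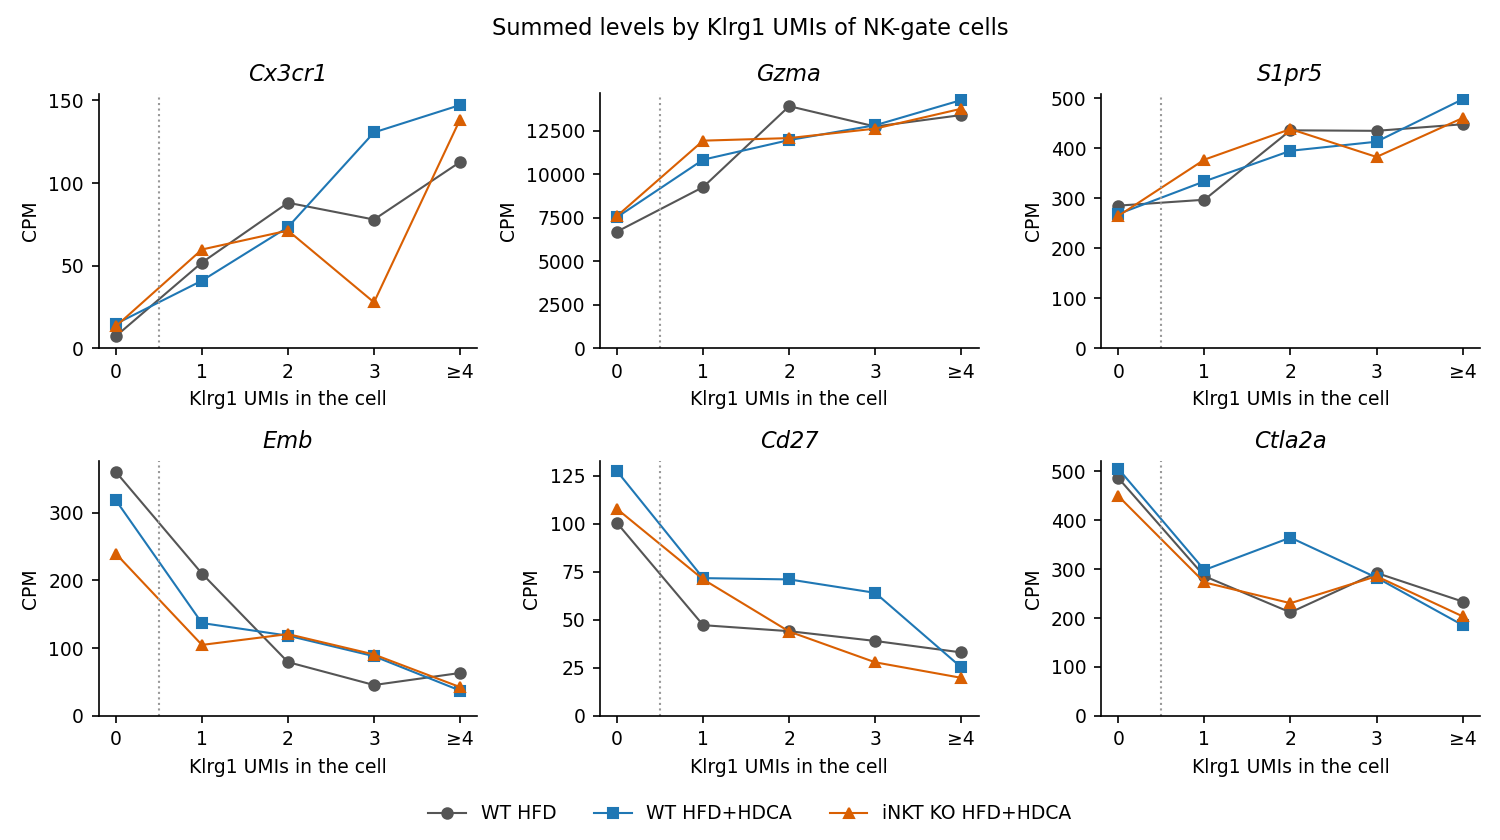
Levels (CPM) of Cx3cr1, Gzma, Emb and Cd27 in NK cells grouped by the number of Klrg1 UMIs per cell (0, 1, 2, 3, at least 4), 1 line per library. Cx3cr1 and Gzma are higher, and Emb and Cd27 lower, at 4 or more UMIs than at 0 in each library.

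Of 17 cytotoxic granule genes, 6 rose with Klrg1 and 1 fell, against 2.73% and 2.37% of all genes tested. Gzma, which codes for granzyme A, was at 11925, 12645 and 12760.4 CPM against 6714, 7545 and 7615 CPM (log2 fold change 0.78, SE 0.07, adjusted p = 2.99e-11, edgeR). Gzmb, which codes for granzyme B, was at 1172, 995 and 1114 CPM against 656, 537 and 766 CPM, a log2 fold change of 0.78. Prf1 was at 1142, 1232 and 1197 CPM against 797, 824 and 845 CPM, a log2 fold change of 0.55. Positive and negative values did not overlap for these 3 genes, again without a share over all genes beside it. Ctsc, the protease that activates granzymes, and Nkg7, a granule membrane protein gene, rose by 0.44 and 0.27 on the log2 scale. Gzmc had a log2 fold change of 1.15, but 1 cell held 92.2% of its UMIs in the WT HFD members, and its sign turned after thinning (-0.72). Gzmm, which codes for granzyme M, went the other way at 10.3, 14.8 and 7.39 CPM against 41.8, 70.5 and 28.5 CPM, a log2 fold change of -2.14. It was therefore lower where Gzma and Gzmb were higher, in each library. Nkg7 lost its call without WT HFD+HDCA (adjusted p = 0.358, edgeR) and Gzmc without WT HFD (adjusted p = 0.971, edgeR). DESeq2 did not call Ctsc or Gzmc (adjusted p = 0.259 and 0.9999).

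The promoters of Gzma, Prf1 and Emb show how the E-box CAGGTG, the letters that ZEB family proteins are known to bind, lies among genes that moved in opposite directions. They are RefSeq sequences of GRCm38.p6, 250 bases before to 50 after the annotated start, with E-boxes of either strand in capitals: Gzma (chr13:113100932-113101231, minus strand), Prf1 (chr10:61297586-61297885, plus strand) and Emb (chr13:117220323-117220622, plus strand).
Gzma: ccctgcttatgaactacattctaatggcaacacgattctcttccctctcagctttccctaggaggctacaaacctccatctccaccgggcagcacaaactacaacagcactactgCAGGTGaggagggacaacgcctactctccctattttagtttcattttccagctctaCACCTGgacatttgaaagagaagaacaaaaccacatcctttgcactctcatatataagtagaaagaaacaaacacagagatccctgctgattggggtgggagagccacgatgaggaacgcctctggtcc
Prf1: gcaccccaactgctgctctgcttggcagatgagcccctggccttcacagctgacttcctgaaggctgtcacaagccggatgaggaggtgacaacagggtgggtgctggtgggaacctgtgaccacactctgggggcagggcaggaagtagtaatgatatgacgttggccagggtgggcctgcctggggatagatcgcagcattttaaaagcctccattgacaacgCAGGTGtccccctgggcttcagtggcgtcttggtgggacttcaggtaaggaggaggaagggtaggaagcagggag
Emb: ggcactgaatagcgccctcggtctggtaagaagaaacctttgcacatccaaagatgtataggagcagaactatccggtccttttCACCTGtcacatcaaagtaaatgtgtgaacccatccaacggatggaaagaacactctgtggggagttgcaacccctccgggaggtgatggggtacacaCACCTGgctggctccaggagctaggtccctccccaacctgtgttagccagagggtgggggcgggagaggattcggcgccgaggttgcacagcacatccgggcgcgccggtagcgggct
Gzma and Prf1 rose with Klrg1 and hold 2 E-boxes and 1, and Emb fell and holds 2. The window of Cx3cr1 holds none. A promoter was in the table for 7172 of the 8988 genes tested, 198 of 245 higher and 152 of 213 lower. The E-box was in 20.03% of all 27025 promoters, 15.8% of those tested, 11.1% of those higher and 19.1% of those lower. The T-box AGGTGTGA, the kind of site that T-bet and Eomes bind, was in 1.27%, 0.767%, 0.505% and 0% of the same sets. Both motifs share the letters AGGTG, and both strands were searched. A match is a description of letters in a window, not a bound site.

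Receptor genes moved in both directions, where over all genes tested 2.73% rose and 2.37% fell. Among 7 Ly49 receptor genes tested, Klra9 (0.84 on the log2 scale) and Klra3 (0.72) rose and Klra6 (-1.47) and Klra1 (-0.71) fell. These genes are close paralogs whose reads may be split between them. Of 12 NKG2 and NKR-P1 receptor genes, 3 rose, namely Klrb1b (0.52), Klrb1a (0.30) and Klrc1 (0.25), which codes for the inhibitory receptor NKG2A. Of 15 activating receptors and adaptors, Slamf7 (0.39) rose and Slamf6 (-1.69) and Crtam (-0.82) fell. Of 8 inhibitory receptors and phosphatases other than Klrg1, none rose and 3 fell: Lilrb4a (-1.54), Cd160 (-0.93) and Tigit (-0.54). Several of these calls were lost when 1 library was left out. Without WT HFD+HDCA those of Klra1, Klrb1a, Klrc1, Slamf6 and Slamf7 were lost (adjusted p = 0.0914, 0.0574, 0.151, 0.0533 and 0.178, edgeR). Without WT HFD those of Klrb1a, Klrc1 and Tigit were lost (adjusted p = 0.105, 0.127 and 0.242, edgeR), and without the knockout those of Klrc1 and Tigit (adjusted p = 0.067 and 0.0998, edgeR). Slamf7 was not called after thinning (adjusted p = 0.318, edgeR), and DESeq2 did not call Klra1, Klra6, Klrb1a, Klrc1, Slamf7 or Tigit (adjusted p from 0.0974 to 0.9999).

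Of 20 traffic and adhesion genes, 7 rose and 5 fell, against 2.73% and 2.37% of all genes tested. Beside Cx3cr1, Itgam and S1pr5, those higher were the integrin chains Itgb7 (0.46), Itgb2 (0.40) and Itgb1 (0.30) and the sphingosine 1-phosphate receptor S1pr4 (0.33). Beside Cxcr3, those lower included the chemokine receptor gene Ccr2 (-0.62) and Cd69 (-0.52), which retains cells in tissue. Among 18 transcription factors of NK maturation 6 rose, Prdm1 (0.48), Irf8 (0.46), Klf2 (0.35) and Id2 (0.27) with Zeb2 and Tbx21. Klf2 drives S1pr genes and exit from tissue. Tcf7, Tox (-0.69) and Nfil3 (-0.49) fell. Of 9 cytokine and chemokine genes, Ccl5 (0.62) and Ccl3 (0.30) rose and Ltb and Xcl1 fell. The Ccl3 call rested on WT HFD+HDCA, where the ratio of positive to negative cells was 1.57 (1.44 to 1.71), against 1.06 (0.946 to 1.18) in WT HFD and 1.02 (0.894 to 1.16) in the knockout. Without WT HFD+HDCA its adjusted p was 0.901 (edgeR), and the calls of Cd69, Itgb1, Klf2, Id2, Nfil3 and Prdm1 were lost too (adjusted p = 0.204, 0.105, 0.151, 0.243, 0.379 and 0.118, edgeR). Without WT HFD those of S1pr4, Nfil3 and Prdm1 were lost (adjusted p = 0.1496, 0.0805 and 0.0818, edgeR), and without the knockout that of Prdm1 (adjusted p = 0.225, edgeR). S1pr4, Nfil3 and Prdm1 were not called after thinning (adjusted p = 0.0888, 0.628 and 0.415, edgeR). DESeq2 did not call Ccl3, Cd69, Itgb1, S1pr4, Id2, Nfil3 or Prdm1 (adjusted p from 0.115 to 0.9999).

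Of 14 galectins and annexins with the S100 and cytoskeletal genes listed beside them, 5 rose: S100a6 (0.85), Lgals1 (0.69), Vim (0.42), S100a10 (0.34) and Ahnak (0.30). Of 13 type I interferon response genes none rose, against 2.73% over all genes tested, a share at which none of 13 is ordinary. Those that fell included Usp18 (-1.27) and Rtp4 (-0.87). None of 20 oxidative phosphorylation genes passed the edgeR test, and 1 of 14 glycolysis genes did, the glucose transporter gene Slc2a3 (0.50). Over all genes tested 5.10% passed, and the counts of these metabolic lists lie near that share. Without WT HFD+HDCA the calls of Ahnak, S100a10, Rtp4 and Slc2a3 were lost (adjusted p = 0.258, 0.0652, 0.405 and 0.0649, edgeR), and without WT HFD those of Usp18 and Slc2a3 (adjusted p = 0.399 and 0.341, edgeR). Slc2a3 was not called after thinning either (adjusted p = 0.881, edgeR), and DESeq2 called none of Ahnak, Rtp4 and Slc2a3 (adjusted p = 0.115, 0.9999 and 0.9999). Of 9 ILC1 and residency markers tested, Gpr183 (-1.38) and Inpp4b (-0.90) were called lower. Gpr183 lost its call without WT HFD (adjusted p = 0.206, edgeR) and in DESeq2 (0.563), and Inpp4b without WT HFD+HDCA (adjusted p = 0.430, edgeR), without the knockout (0.101), after thinning (0.414) and in DESeq2. Major histocompatibility complex (MHC) class II genes fell in 4 of 7 cases, H2-Ab1 (-1.70), H2-Eb1 (-1.55), Cd74 (-1.40) and H2-Aa (-1.30). H2-Aa was not called after thinning (adjusted p = 0.284, edgeR), and DESeq2 did not call H2-Ab1, Cd74 or H2-Aa (adjusted p = 0.0508, 0.238 and 0.195). Their summed level was 140.3, 113 and 133 CPM in positive and 235, 262 and 352 CPM in negative cells, against 40458, 41709 and 39291 CPM in B cells. B cell markers moved with them, at 80.4, 86.0 and 64.4 CPM in positive and 126, 117 and 117 CPM in negative cells, and their part in the MHC result was not tested.

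Genes of cell division stood out by size among those higher with Klrg1. Of 16 cell cycle genes 12 were called, with a median log2 fold change of 1.41. Mki67, the proliferation marker Ki-67, was at 42.8, 114 and 67.5 CPM against 24.0, 17.8 and 22.2 CPM (log2 fold change 1.92, SE 0.19, adjusted p = 1.54e-09, edgeR). Its positive value was above its negative value in each library, with 50, 293 and 64 UMIs in the positive cells. Ube2c (1.90), the histone genes H1f5 (1.80) and H1f3 (1.47), Top2a (1.57) and Stmn1 (1.29) were also among the 12 called genes with the highest fold changes. The ratio of Ube2c in WT HFD (1.24, 0.800 to 1.93) and that of H1f5 in the knockout (1.11, 0.638 to 1.92) had intervals that held 1. H1f5 lost its call without WT HFD+HDCA (adjusted p = 0.264, edgeR), and DESeq2 called neither Ube2c nor H1f5 (adjusted p = 0.9999 for both). Few cells carried these transcripts. At least 2 UMIs of Mki67, Top2a and Birc5 together were in 7, 16 and 5 positive cells (3.85%, 4.08% and 2.98%) and in 3, 3 and 4 negative cells (1.04%, 0.840% and 2.14%), and the dividing members had medians of 14974, 15696.5 and 12921 UMIs, above the 4954.5 to 5601.5 of all members. After thinning, 3 of 118, 5 of 283 and 3 of 131 positive cells and 2 of 286, 8 of 389 and 2 of 180 negative cells were dividing, the median of the list was 0.14, and 2 of 10 genes were called. Mki67, H1f5 and H1f3 then had log2 fold changes of 0.73, 0.34 and 0.0840 (adjusted p = 0.299, 0.824 and 0.969, edgeR), and DESeq2 on the full counts gave it an adjusted p of 0.0760. Without the dividing cells, which were chosen by genes of this list, 2 of 7 genes were called. The fold changes of Hmgb2 and Tubb5 were then -0.11 and -0.0245.

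The remaining genes with the highest fold changes were Timp2 (1.37), a metalloprotease inhibitor, Cdc20b (1.33) and Serpinb9b (1.33), a serpin of the family that blocks granzyme B. The lowest beside those already given were Fgf13 (-1.25), Aff3 (-1.11), Airn (-1.02) and Lpxn (-1.02). Fgf13 was at 34.2, 28.8 and 43.3 CPM against 99.7, 78.9 and 63.1 CPM, lower in the positive cells of each library. Timp2 was at 64.2, 77.02 and 65.4 CPM against 28.3, 27.1 and 26.7 CPM, higher in the positive cells of each library. DESeq2 did not call Serpinb9b (adjusted p = 0.191).

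Between the wild-type libraries few genes of the Klrg1-positive cells were apart. The comparison asks what hyodeoxycholic acid in the diet goes with in these cells. Of 7575 genes with at least 50 UMIs in both libraries together, 74 (0.977%) were at least 2-fold apart, 54 (0.713%) higher and 20 (0.264%) lower with HDCA. Over 9462 genes with at least 20 UMIs, 4933 were higher and the median log2 ratio was 0.01. Ratios below carry exact 95% intervals for counting error, and none is tested.

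Mature NK, granule, activating receptor and immature NK genes had small median ratios. Of 9 mature NK markers outside the rule 5 were higher with HDCA, with a median log2 ratio of 0.08, and of 17 cytotoxic granule genes 13 were, with a median of 0.08. Of 15 activating receptors and adaptors outside the rule 12 were higher (median 0.10) and of 11 immature NK markers 7 (median 0.17). Ly6c2 was at 1007 CPM with HDCA against 1220.3 CPM without, a ratio of 0.825 (0.773 to 0.881). Of 9 ILC1 and residency markers measured 7 were lower, with a median of -0.69. Of these, 3 were at least 2-fold lower, against 95 of 9462 over all genes. The 9 markers were low, summing to 316 CPM with HDCA and 391 CPM without.

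Klri1, an inhibitory lectin-like receptor gene of NK cells, had the highest ratio among the genes named by rule. It was at 28.4 CPM (73 UMIs) with HDCA and 5.99 CPM (7 UMIs) without, a ratio of 4.74 (2.19 to 12.2). The knockout library, on the same diet, was at 28.5 CPM, and in Klrg1-negative cells the ratio was 1.84 (1.02 to 3.47). Slc15a2, a peptide transporter gene, had 3, 40 and 0 UMIs in the members of the 3 libraries, a ratio of 6.06 (1.93 to 30.6) between the wild-type libraries. The limit that a count of 0 allows in the knockout members is 3 counts, or 3.17 CPM. In B cells the HDCA ratio of Slc15a2 was 7.45 (5.02 to 11.5), so its difference was not limited to NK cells.

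Genes of cell division were higher in 15 of 16 cases with HDCA, with a median log2 ratio of 0.73. Mki67 was at 114 CPM against 42.8 CPM, a ratio of 2.66 (1.97 to 3.67), whereas in Klrg1-negative cells it was 0.740 (0.457 to 1.19). Kif22 (3.24, 1.54 to 7.86), Fbxo5 (3.24, 1.54 to 7.86), Ccna2 (2.59, 1.60 to 4.40) and the histone gene H2ac8 (2.59, 1.98 to 3.44) were among the 10 highest ratios. The difference lay in few cells, 7 of 182 dividing members without HDCA and 16 of 392 with it, and the shares overlapped within counting error (3.85%, 1.56 to 7.76, and 4.08%, 2.35 to 6.54). Without the dividing cells, which were chosen by genes of this list, its median was 0.14, and after thinning 5 of 9 genes were higher. The other genes at the top were Sp3os (2.99, 1.34 to 7.84), Myb (2.73, 1.28 to 6.68), Tm7sf3 (2.67), Nenf (2.64, 1.34 to 5.79) and Atpaf1 (2.59, 1.42 to 5.09). After thinning the ratios of Myb and H2ac8 turned to lower with HDCA, at -0.525 and -0.0556 on the log2 scale.

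Among the genes lower with HDCA, Hspa1b, a gene of the inducible heat shock protein 70, was at 4.28 CPM (11 UMIs) against 46.2 CPM (54 UMIs), a ratio of 0.0926 (0.0437 to 0.179). All 10 heat shock genes measured were lower with HDCA, with a median log2 ratio of -0.20. In Klrg1-negative cells the ratio of Hspa1b was 0.368 (0.245 to 0.543) and in B cells 0.510 (0.443 to 0.587). The difference was thus present in all 3 populations and widest in the members. Camk2b, a subunit of a calcium-dependent kinase, was at 50.96 against 110.4 CPM, a ratio of 0.462 (0.359 to 0.593). Atg2b of autophagy had 0.373 (0.205 to 0.672), Mthfd1 and Mtrr of folate metabolism 0.487 (0.281 to 0.846) and 0.492 (0.272 to 0.896), and the interferon-induced GTPase gene Igtp 0.50 (0.347 to 0.721). Gtf2a1, Tbc1d8b, Dop1a, Micu3 and Nudt13 lay between 0.455 and 0.497.

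Of 8 genes listed as bile acid and GLP-1 receptors, 2 had at least 20 UMIs in the libraries compared, Nr1h2 and S1pr2. The 8 genes together summed to 115, 103 and 112 CPM in the members. Nr1h4 (FXR), Gpbar1 (TGR5), Vdr and Glp1r, the receptor for the gut hormone GLP-1, had 0 UMIs in the members of all 3 libraries, and Nr1h2, a receptor for oxysterols, was at 97.6, 86.0 and 97.1 CPM. Counts of 0 in 182, 392 and 168 cells set a limit of 2.57, 1.17 and 3.17 CPM and do not show that the genes are silent.

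Between the iNKT KO and WT libraries on the HDCA diet most of the genes that were apart were lower in the knockout. The comparison asks what the Jα18 deletion goes with in Klrg1-positive NK cells, which do not carry the deleted receptor. It shares the WT HFD+HDCA library with the comparison above, so the results of both are given side by side and not as separate support. Of 7440 genes with at least 50 UMIs, 115 (1.55%) were at least 2-fold apart, 20 (0.269%) higher and 95 (1.28%) lower in the knockout. Over 9340 genes with at least 20 UMIs, 4582 were higher, 4758 were lower and the median log2 ratio was -0.00477. The knockout members held 947459 UMIs against 2570689 in WT HFD+HDCA. In both condition comparisons most genes past 2-fold were lower in the library with the smaller sum. The part of the unequal sums in this skew was not tested.

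Lgals3, which codes for galectin-3, a lectin that binds galactosides on glycoproteins, had the highest ratio of the genes named by rule. It was at 35.9, 26.8 and 251 CPM in the members, with 42, 69 and 238 UMIs. The ratio of the knockout to WT HFD+HDCA was 9.36 (7.13 to 12.4). The wild-type libraries lay close together and the knockout far above both. A UMI of Lgals3 was in 9.34%, 7.40% and 47.6% of members and in 3.86, 5.93 and 16.1% of B cells. In Klrg1-negative cells the ratio was 8.07 (5.999 to 11.01) and in B cells 2.44 (2.15 to 2.78), so the knockout was higher in all of these populations, least in B cells. In the WT HFD+HDCA to WT HFD comparison the ratio of Lgals3 was 0.747 (0.502 to 1.12).

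Lgals3 lies on chromosome 14, as does the T cell receptor alpha locus that was cut in the Ja18-/- mice. Of 243 measured genes placed on chromosome 14, leaving out T cell receptor genes, 10 (4.12%) were at least 2-fold apart in the knockout comparison. Among genes placed elsewhere or given no chromosome by the annotation used, 95 of 6861 (1.38%) were. Tmem254, one of the low genes given below, had no chromosome there and is in the second group. For the HDCA comparison the counts were 3 of 243 (1.23%) and 65 of 6982 (0.931%). Mtmr9 (ratio 3.81, 2.52 to 5.80) and Slc25a30 (2.28, 1.38 to 3.76), a mitochondrial carrier gene, were others on this chromosome that were higher in the knockout. Ccnb1ip1 (0.160, 0.0319 to 0.493) and the leukotriene receptor gene Cysltr2 (0.258, 0.0914 to 0.594) were lower. Whether these differences go with the DNA around the targeted locus was not tested. Trdc and Trac, the constant genes of the same locus, had 51, 132 and 4 UMIs and 24, 59 and 2 UMIs, with ratios of 0.0822 (0.0221 to 0.216) and 0.0920 (0.0109 to 0.347). Both wild-type libraries had these transcripts in NK cells and the knockout nearly none.

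**Figure D4:**
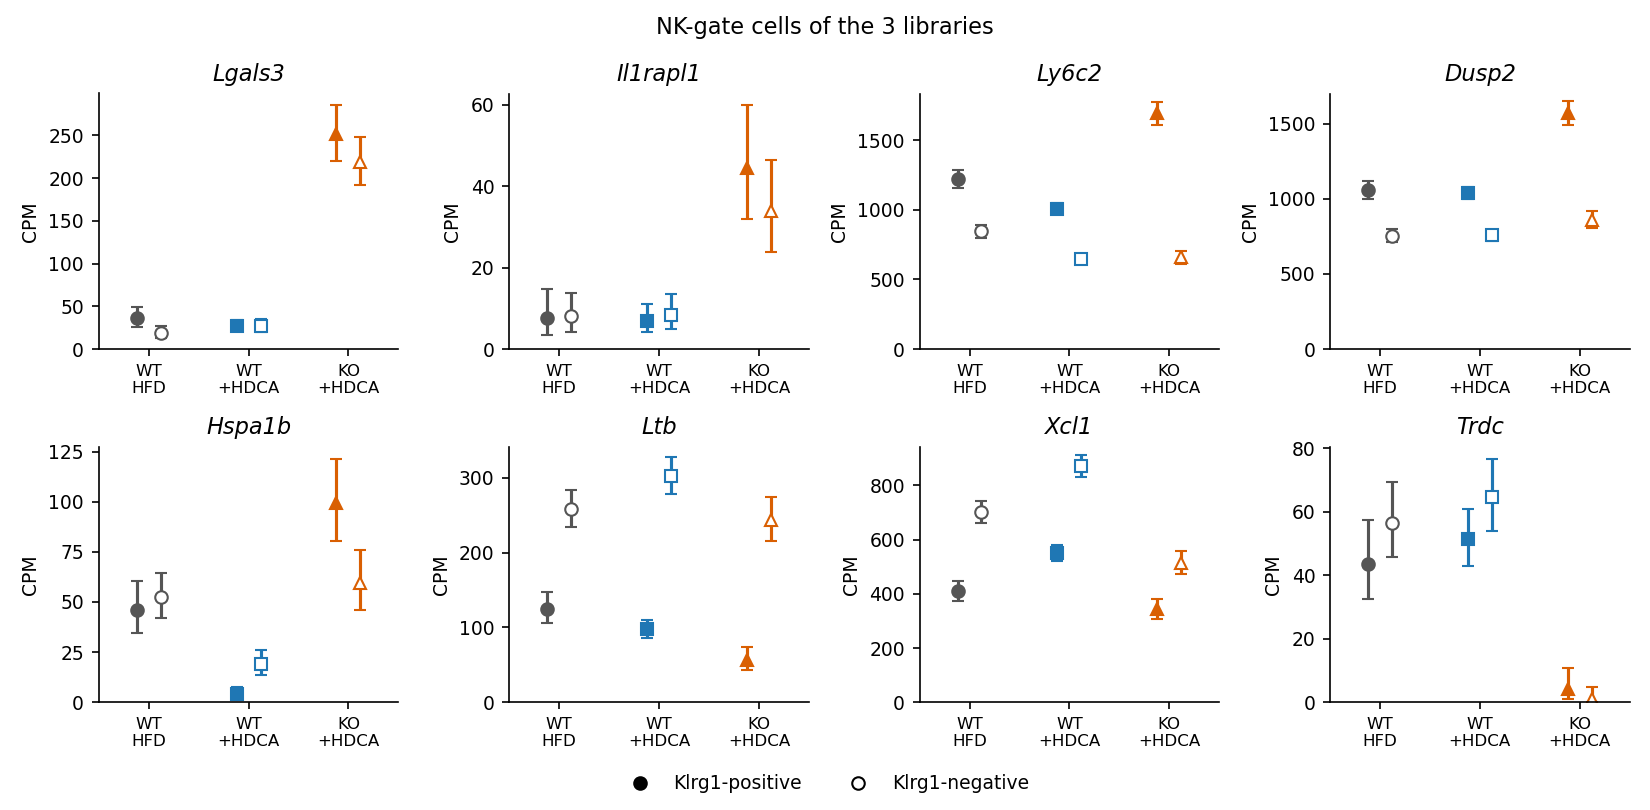
Levels (CPM) of Lgals3, Il1rapl1, Ly6c2, Dusp2, Hspa1b, Ltb, Xcl1 and Trdc in Klrg1-positive and Klrg1-negative NK cells of the 3 libraries. Bars are exact 95% intervals for counting error. Lgals3 in Klrg1-positive cells is at 35.9 CPM in WT HFD, 26.8 CPM in WT HFD+HDCA and 251 CPM in the knockout.

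Ly6c2 was higher in the knockout in the Klrg1-positive cells, and in the Klrg1-negative cells the interval of its ratio held 1. It was at 1692 against 1007 CPM, a ratio of 1.68 (1.58 to 1.79). The ratio in Klrg1-negative cells was 1.02 (0.934 to 1.12). A UMI of it was in 56.6%, 51.8% and 71.4% of members and 2.61, 3.20 and 2.497% of B cells. Of the 9 mature NK markers outside the rule, Ly6c2 included, 5 were higher and 4 lower, with a median log2 ratio of 0.00746. Of 11 immature markers 9 were lower (median -0.26), with Ltb at 57.0 against 97.3 CPM (0.586, 0.428 to 0.789) and Xcl1 at 343 against 551 CPM (0.623, 0.550 to 0.703). In Klrg1-negative cells the ratio of Xcl1 was 0.591 (0.537 to 0.650), close to that in the members.

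Of 10 cytokine and chemokine genes 9 were lower in the knockout (median -0.30). Ccl3 and Ccl4, which code for chemokines that draw monocytes and T cells, were at 488, 628 and 446 CPM and 881, 1100.5 and 826 CPM, with ratios of 0.711 (0.637 to 0.791) and 0.751 (0.693 to 0.813) for the knockout against WT HFD+HDCA. WT HFD+HDCA held the highest level of both, and the knockout lay beside WT HFD. Ccl5 was at 16349, 18520.3 and 18073 CPM, a ratio of 0.976 (0.959 to 0.993), and Ifng, which codes for interferon gamma, at 205, 163 and 151 CPM, a ratio of 0.928 (0.762 to 1.12). Cd160, a receptor of activated NK cells, was at 57.3, 103 and 65.4 CPM, again highest in WT HFD+HDCA, with a ratio of 0.635 (0.473 to 0.840).

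Of 12 NKG2 and NKR-P1 receptor genes 10 were higher in the knockout (median 0.15), Klrb1b among them with 1.41 (1.23 to 1.61). Klra3 of the Ly49 family had 1.39 (1.24 to 1.56). Crtam, an adhesion receptor of activated NK cells, was at 25.3 against 74.3 CPM, a ratio of 0.341 (0.213 to 0.523). Dusp2, a phosphatase gene induced by activation, went the other way at 1574 against 1039.8 CPM, a ratio of 1.51 (1.42 to 1.61). Nr4a1, also induced by receptor signals, was lower with 0.515 (0.392 to 0.670), so these activation genes did not move one way. The transcription factor gene Ikzf2 (Helios) had 0.448 (0.251 to 0.752).

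Hspa1b was at 99.2 CPM (94 UMIs) against 4.28 CPM (11 UMIs), a ratio of 23.2 (12.4 to 48.0). The ratio was 3.10 (2.06 to 4.72) in Klrg1-negative cells and 4.46 (3.96 to 5.02) in B cells. WT HFD+HDCA held the lowest level in members of the 3 libraries, and WT HFD and the knockout differed less from each other. Its near-identical copy Hspa1a had 14, 20 and 25 UMIs, and reads may be split between them. Of 10 heat shock genes 6 were lower in the knockout (median -0.25).

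Of 16 cell cycle genes 13 were lower in the knockout (median -0.61). H2ac8 (0.151, 0.0912 to 0.237) and Spc24 (0.284, 0.126 to 0.565) were among the lowest ratios. There were 5 dividing members of 168 in the knockout and 16 of 392 in WT HFD+HDCA. Without the dividing cells, which were chosen by genes of this list, its median was 0.04, and after thinning 0.09. Genes outside the cell cycle with low ratios were Cdk5rap1 (0.166, 0.0331 to 0.515), an enzyme of mitochondrial tRNA modification, which was also low in Klrg1-negative cells (0.177, 0.0551 to 0.440) and B cells (0.364, 0.290 to 0.454), and Tmem254 (0.297, 0.225 to 0.387), low in both as well (0.262, 0.198 to 0.341, and 0.372, 0.317 to 0.435). Snhg15 (0.217, 0.0569 to 0.591), Tmem29 (0.289, 0.0896 to 0.723), Gcnt1 (0.291, 0.102 to 0.673), which builds core 2 O-glycans, and Itgb3bp (0.339, 0.119 to 0.794) completed the 10 lowest.

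On the higher side Il1rapl1, an interleukin-1 receptor accessory-like gene on chromosome X, was at 44.3 against 7.002 CPM, a ratio of 6.33 (3.57 to 11.7). It was higher in Klrg1-negative cells (4.03, 2.22 to 7.62) and B cells (2.54, 2.19 to 2.94) as well. Cyb5r1 (2.49, 1.52 to 4.08), Ankrd27 (2.43, 1.38 to 4.28), Zfp287 (2.41, 1.33 to 4.34), the interferon-induced GTPase gene Tgtp2 (2.29, 1.45 to 3.61), Arsa (2.13, 1.16 to 3.86), a lysosomal sulfatase gene, and Zscan26 (2.11, 1.42 to 3.11) completed the 10 highest. The plasma cell gene Ighg2c had 0, 1 and 2 UMIs in the members.

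The knockout library also differed from the others in the cells that the rule left out, beyond counting error. Cells with Ncr1 and Klrg1 that met every other condition but had no UMI of Eomes, Klra8 or Klra4 numbered 26 of 208 Ncr1 and Klrg1 cells in WT HFD (12.5%, 8.33 to 17.8), 73 of 465 in WT HFD+HDCA (15.7%, 12.5 to 19.3) and 172 of 340 in the knockout (50.6%, 45.1 to 56.0). Their median depth was 5966.5, 4950 and 5129 UMIs, near that of the members, and none was called a doublet. In the knockout the rule therefore took 168 of these cells and left out 172, and in the wild-type libraries it took most of them. The genes given next for these cells were chosen after their values were seen.

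The cells left out in the knockout carried some transcripts of mature NK cells and some of resident ILC1. S1pr5 was in 83.0, 82.7 and 80.4% of members and 69.2, 82.2 and 75.6% of the cells left out, and Prf1 in 96.7, 98.2 and 97.0% of members and 84.6, 87.7 and 87.8%. The mature gene Itgam was in fewer of the cells left out, in 77.5, 77.04 and 76.2% of members and 53.8, 49.3 and 38.4%. So were 2 Ly49 genes, Klra3 in 38.5, 44.1 and 47.6% and 7.69, 27.4 and 27.3%, and Klra7 in 33.5, 38.3 and 33.9% and 26.9, 8.22 and 8.72%. The cells left out were chosen for no UMI of the paralogs Klra8 and Klra4, so their Ly49 shares are not independent of the rule. Itga1, which codes for CD49a, was in 3.30, 4.34 and 5.36% of members and 30.8, 28.8 and 47.1%, and Zfp683, the Hobit factor of tissue residency, in 0, 1.02 and 3.57% of members and 19.2, 10.96 and 40.1%. At least 1 of Itga1, Cxcr6 and Zfp683 was in 42.3%, 41.1% and 66.9% of the cells left out. Cx3cr1 was in 25.3, 27.6 and 25% of members and 19.2, 32.9 and 48.8%, Ly6c2 in 56.6, 51.8 and 71.4% of members and 69.2, 57.5 and 84.9% and Lgals3 in 9.34, 7.40 and 47.6% of members and 11.5, 16.4 and 75%. The knockout cells left out therefore carried the residency genes, Cx3cr1, Ly6c2 and Lgals3 more often than the members of the same library. Dividing cells were 0 of 26, 2 of 73 and 18 of 172 of them, 10.5% in the knockout.

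**Figure D5:**
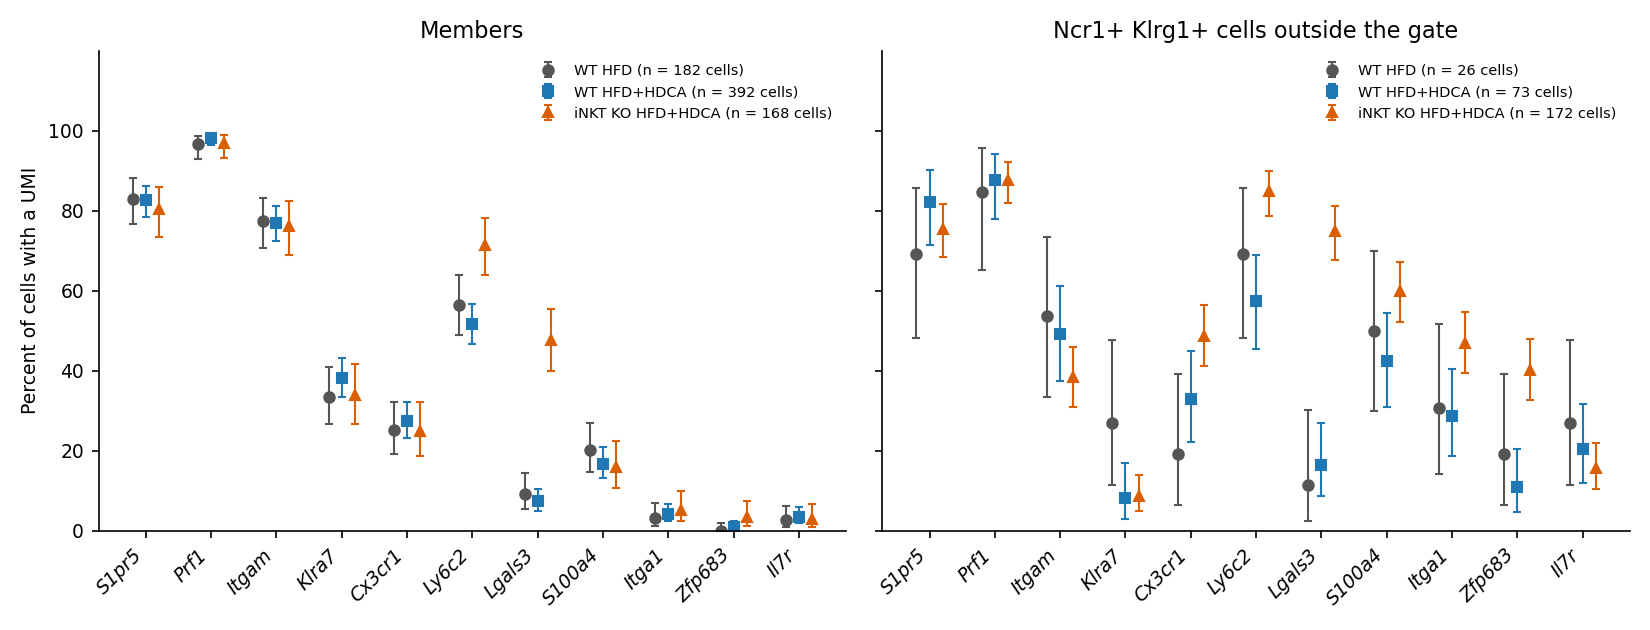
Percent of cells with a UMI of each gene among the members and among the Ncr1 and Klrg1 cells without Eomes, Klra8 and Klra4 transcripts, by library. Zfp683 is in 40.1% of the knockout cells left out, against 19.2% and 10.96% in the wild-type libraries.

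Cells of the ILC1 type, taken as Ncr1 cells without Eomes, Klra8 and Klra4 and with Itga1, Cxcr6 or Zfp683, numbered 99, 145 and 323. Klrg1 was in 11.1%, 20.7% and 35.6% of them (exact 95% intervals 5.68 to 19.0, 14.4 to 28.2 and 30.4 to 41.1). The knockout thus held more cells of the ILC1 type, and a larger part of them carried Klrg1, than either wild-type library. Those with Klrg1, 11, 30 and 115 cells, are the same cells as the ones left out with Itga1, Cxcr6 or Zfp683. Their share is therefore not a result separate from the one above. A cell without a UMI of Eomes, Klra8 and Klra4 may still express them, so the boundary between these cells and the members rests on depth as well as on type.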

How the data were processed

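RNA and T cell receptor libraries of liver cells from 3 groups were analysed. The deposited RNA files held raw counts of UMIs per gene and barcode for 33696 genes, made with Cell Ranger 8.0.1 per the file headers and already filtered to cell barcodes by the authors. The builds mm10 and GRCm39 are both named in the submitters' processing notes. The T cell receptor files gave counts of UMIs and reads per contig as the authors deposited them and were used only to see whether a barcode had a contig. Barcode and gene names were text in other deposited files.

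The rule was applied to all barcodes without further filters. UMIs were summed per library and population and scaled to CPM, a fold or ratio being computed here and not by the authors. Ratios carry conditional exact, levels exact Poisson and shares Clopper-Pearson intervals (95%), for counting error only, and a count of 0 allows up to 3 counts. The 6 sums of Klrg1-positive and Klrg1-negative cells were tested with edgeR 4.0.16 (quasi-likelihood, TMM, filterByExpr, library as block, Benjamini-Hochberg adjustment over all genes, threshold 0.05) in R 4.3.3. The pairing comes from the design, since both populations of a library share 1 cell suspension. In simulated data for this comparison with 8979 genes it recovered 76 of 97 genes changed 2-fold and 13 of 96 changed 1.5-fold, and called 5 of 8786 unchanged genes. Conditions were compared without a test. Alternatives were DESeq2 1.42.0, other filters and scalings, thinning to 3000 UMIs, a stricter Klrg1 threshold, removal of doublets (Scrublet in scanpy 1.11.5) and of single libraries or cells, and, added after the data were seen, removal of dividing cells. Other steps used Python 3.11.15, numpy 2.4.6, scipy 1.17.1, pandas 2.3.3 and matplotlib 3.10.9.

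The cells and the 31 gene lists were chosen with earlier results of these data known. Genes were named by a rule. For Klrg1-positive against Klrg1-negative cells it took the 12 highest and 12 lowest fold changes among called genes of the same direction in all 3 libraries with at least 50 CPM in the higher population. For each condition comparison it took the 10 genes at each end of the ratios, with at least 50 UMIs in both libraries together, a ratio of at least 1.5 either way, an interval without 1 and no cell holding over 20% of the UMIs. Receptor segments, gene models, mitochondrial, ribosomal, sex-linked and rule genes were left out. The mature, immature and ILC1 markers, Traj18, Slc15a2, Lgals3, Hspa1a, Hspa1b and Ighg2c were reported in any case, with up to 4 examples of a list. Genes beyond this are named for their list or after their values were seen. Chromosomes and promoters are RefSeq's of GRCm38.p6, matched by symbol. No promoter of Klrg1 was used here. A group had 1 sample, so no outlier among replicates could be sought. Values of some genes in the lists are not reported here, and these genes remain in the counts of their lists.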

Additional observations from a re-analysis of the deposited data

Results flagged for a closer look

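The following genes had ratios of Klrg1-positive to Klrg1-negative NK cells that lay on opposite sides of 1 in different libraries, beyond the 95% intervals for counting error. The difference between libraries was not tested, because each condition had 1 library.

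Csf2, which codes for the growth factor GM-CSF, had a ratio of 4.66 (2.67 to 8.55) in WT HFD, 1.004 (0.554 to 1.84) in WT HFD+HDCA and 0.0424 (0.00104 to 0.256) in iNKT KO HFD+HDCA. Its UMIs in positive against negative cells were 57 against 17, 28 against 22, 1 against 28. One cell held 55 of the 57 UMIs of the WT HFD members. Hspa1b, a heat shock gene, had a ratio of 0.884 (0.616 to 1.26) in WT HFD, 0.222 (0.103 to 0.443) in WT HFD+HDCA and 1.67 (1.20 to 2.31) in iNKT KO HFD+HDCA, from 54 against 85, 11 against 39, 94 against 67 UMIs. Igtp, an interferon-induced GTPase gene, had a ratio of 1.52 (1.03 to 2.23) in WT HFD, 0.659 (0.468 to 0.925) in WT HFD+HDCA and 0.456 (0.258 to 0.778) in iNKT KO HFD+HDCA, from 60 against 55, 66 against 79, 20 against 52 UMIs. Nr4a1, an immediate early gene of antigen receptor signals, had a ratio of 1.01 (0.800 to 1.27) in WT HFD, 1.29 (1.09 to 1.53) in WT HFD+HDCA and 0.602 (0.443 to 0.812) in iNKT KO HFD+HDCA, from 130 against 179, 358 against 219, 68 against 134 UMIs, of which 1 cell of WT HFD+HDCA held 48.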

How the results depend on the processing

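Thinning every barcode to 3000 UMIs before the rule gave Klrg1-positive shares of NK cells of 29.2% in WT HFD and 42.1% in WT HFD+HDCA, and requiring 2 UMIs of Klrg1 gave 24.0%, 35.9% and, for the knockout, 31.0%. The count of genes at least 2-fold higher with HDCA (54 of 7575 measured) became 27 of 4184 after thinning. It was 29 of 7458 without the cell with most UMIs of each gene and 31 of 7255 without dividing cells. With at least 20 UMIs it was 219 of 9462, and with at least 100 it was 17 of 5561. Each setting was counted anew over the genes it measured, without asking whether the genes were the same. The lower count (20), over the same measured genes, became 10 after thinning, 5 without the top cell, 95 with at least 20 UMIs and 4 with at least 100. With 2 UMIs of Klrg1 it was 12 of 6500. For the knockout the higher count (20) became 9 after thinning, 8 without the top cell, 115 with at least 20 UMIs and 5 with at least 100. The lower count (95) became 35 after thinning, 58 without the top cell, 56 without dividing cells, 292 with at least 20 UMIs and 22 with at least 100. The genes measured for the knockout were 7440 at first, 4272 after thinning, 7320 without the top cell and 7105 without dividing cells. With at least 20 and at least 100 UMIs they were 9340 and 5356. Filters that keep fewer UMIs per gene leave wider counting errors. The top cell was taken out only in the library where the gene was higher, so this setting lowers that side alone. For the other counts the cause was not tested. With HDCA, the log2 ratios of Myb and H2ac8 turned to -0.525 and -0.0556 after thinning, and that of Mki67 in the knockout to 0.21 after thinning and 0.0473 with 2 UMIs of Klrg1.

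Between Klrg1-positive and Klrg1-negative cells the genes called higher (245) and lower (213) became 113 and 135 after thinning, 371 and 334 with 2 UMIs of Klrg1 and 48 and 30 in DESeq2. Without the replicate block for the library, 149 and 118 were called. Leaving out 1 library gave 97 to 281 higher and 102 to 207 lower. Gzmc turned to -0.72 after thinning and -0.31 with 2 UMIs of Klrg1, and Hmgb2 and Tubb5 to -0.11 and -0.0245 without dividing cells. The cause was not tested. The remaining alternatives (doublet and quality filter, library totals, no filter, recentring on the median ratio) kept these counts within 1.5 times. One library per group leaves differences between mice unmeasured, and a gene under about 50 UMIs has a wide interval.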

Other observations

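The interferon and metabolic lists had median log2 ratios between -0.23 and 0.16 across the conditions in the Klrg1-positive cells. Of 13 type I interferon response genes measured, 7 were higher with HDCA (median log2 ratio 0.16) and 9 were lower in the knockout than in WT HFD+HDCA (-0.23). The 2 comparisons share the WT HFD+HDCA library. Isg15, a ubiquitin-like interferon-induced gene, was at 21.4, 34.2 and 17.9 CPM, and Irf7, an interferon-induced transcription factor, at 65.9, 73.5 and 50.7 CPM, so that WT HFD+HDCA held the highest level of both. Of 16 lipid handling genes, 9 were lower with HDCA (-0.07) and 11 were lower in the knockout (-0.20). Of 20 oxidative phosphorylation genes, 12 were higher with HDCA (0.03) and 15 were lower in the knockout (-0.05). These medians are small beside those of the cell cycle list over all members, 0.73 with HDCA and -0.61 in the knockout. Without dividing cells the cell cycle medians were 0.14 and 0.04, over 9 and 8 genes. Dividing cells were chosen by Mki67, Top2a and Birc5, which are in that list, so its medians shrink by the choice. They therefore give no measure of whether the interferon and lipid medians are small.

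In some of the largest ratios 1 cell held most of the UMIs of the higher library. Siglech, a marker of plasmacytoid dendritic cells, had 1, 37 and 1 UMIs in the members, and 1 cell held 56.8% of those of WT HFD+HDCA. Cxcl10, an interferon-induced chemokine gene, had 33, 1 and 1 UMIs, with 81.8% of those of WT HFD in 1 cell.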
